A study of Homo sapiens with 6 samples.

Results

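RNA polymerase II is the enzyme that transcribes protein-coding genes, and 10 genes for its subunits were followed in HG3 cells with and without resistance to fludarabine. The 10 genes, out of 23619 gene symbols measured, were POLR2A, POLR2C, POLR2D, POLR2E, POLR2F, POLR2G, POLR2H, POLR2I, POLR2K and POLR2L. POLR2A was chosen by its FPKM, a read level scaled for transcript length and library size, which was lower in all 3 resistant pools, so its values are given as a description without a test. The other 9, called partners here, were added as parts of the same complex, and all 10 passed the filter on low values. HG3 is a B cell line made from chronic lymphocytic leukaemia and described as lymphoblastoid in the labels, and the study used it for transposon mutagenesis. The libraries, from total RNA, came from 3 fludarabine-resistant pools, titled treated, and 3 control pools, each group numbered 17, 18 and 28, with 1 library per pool and group. The labels give no dose, no time and no other agent, and do not say whether control pools carry transposons or how many clones a pool holds. Fludarabine is a purine nucleoside analogue used against this leukaemia.

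RNA polymerase II is built from a large catalytic pair, POLR2A and POLR2B, an assembly platform that holds them, a protruding stalk, and small subunits that RNA polymerases I and III also use. POLR2A ends in a long tail of repeats of 7 amino acids, and kinases and phosphatases change the phosphate groups on this tail as the enzyme starts, pauses, elongates and stops. Each subunit is present once in the enzyme.

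The stretch of DNA before the start of POLR2A is shown because this gene carries the difference. Those of POLR2E, the partner whose groups did not overlap, and of POLR2F, the partner that differed most between pools, are shown for comparison. The sequences are the 250 bases before a RefSeq transcript start on GRCh38.p14, 5′ to 3′ on the strand of the gene: chr17:7484116-7484365 on the plus strand for POLR2A, chr19:1095376-1095625 on the minus strand for POLR2E, and chr22:37953449-37953698 on the plus strand for POLR2F. The FPKM were made on hg19, and no measured value rests on these coordinates. Capitals mark matches to the TATA element TATAA, the GC box GGGCGG, the CCAAT box, the ETS factor motif CCGGAAG and the NRF1 motif, searched on both strands, none of which overlapped another in these 3 sequences.
POLR2A: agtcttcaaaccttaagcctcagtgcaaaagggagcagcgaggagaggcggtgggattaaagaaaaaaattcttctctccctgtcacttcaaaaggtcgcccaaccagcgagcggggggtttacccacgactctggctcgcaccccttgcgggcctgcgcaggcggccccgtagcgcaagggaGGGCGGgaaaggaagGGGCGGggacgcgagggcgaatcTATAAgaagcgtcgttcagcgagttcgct
POLR2E: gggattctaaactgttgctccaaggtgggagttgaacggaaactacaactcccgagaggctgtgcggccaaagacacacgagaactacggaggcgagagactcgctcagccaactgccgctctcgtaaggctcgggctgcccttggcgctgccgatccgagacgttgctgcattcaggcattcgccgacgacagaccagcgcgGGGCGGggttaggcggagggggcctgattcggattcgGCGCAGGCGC
POLR2F: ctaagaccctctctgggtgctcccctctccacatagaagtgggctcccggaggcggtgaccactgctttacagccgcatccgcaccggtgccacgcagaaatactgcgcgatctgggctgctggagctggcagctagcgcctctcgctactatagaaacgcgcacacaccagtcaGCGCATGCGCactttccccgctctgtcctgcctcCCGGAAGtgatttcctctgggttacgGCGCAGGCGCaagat
RefSeq starts were matched for 7 of the 10 genes. TATAA, a core promoter element, was found before POLR2A alone of these 7, beginning 29 bases before the start, and before at least 1 start of 22.5% of the 27305 genes with a RefSeq start. A gene counts here when any of its starts has a match, and POLR2F and POLR2H have 2 starts each. GGGCGG, a GC box, was found for 5 of the 7 and for 46.2% of all genes. The NRF1 motif was found for 3 of the 7, POLR2E, POLR2F and POLR2H, and for 6.20% of all genes. CCGGAAG was found for 2 of the 7, POLR2C and the start of POLR2F shown, and for 10.2% of all genes, and CCAAT for 0 of the 7 and 37.0% of all genes. These matches describe letters only.

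Relative depth, read from the steps between low values, ran from 1.04 to 1.31 in resistant and from 1 to 1.24 in control libraries, taking control 17 as 1. Absolute depth was not estimated, so no counting interval is given. All 8 B cell markers were above 1 FPKM in every library, with a summed level of 889 to 1207 FPKM in resistant and 779 to 1136 FPKM in control libraries. The 8 T and NK cell markers summed to 0.640 to 2.26 FPKM in resistant and 1.01 to 1.62 FPKM in control libraries, the 8 myeloid markers to 5.13 to 9.12 and 4.98 to 5.68 FPKM, with ELANE and FCGR3A at 0, and the 8 fibroblast and epithelial markers to 3.80 to 7.17 and 2.74 to 3.78 FPKM, with DCN and EPCAM at 0. The 6 erythroid markers summed to 0 to 0.102 FPKM in resistant and 0 to 0.203 FPKM in control libraries, with HBA1, HBA2 and HBB at 0. The part of these markers in the results was not tested. Resistant 18 stood apart. It was the highest of the 6 libraries for 35.4% and the lowest for 25.3% of the 11307 genes tested, and limma's array weights gave it 0.162, against 1.03 to 1.93 for the other libraries. Differences of subunit genes are given with it and, beside them or in the account of that library, without it.

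POLR2A, which holds most of the active site and the repeat tail, had a level of 3.39, 3.39 and 3.71 FPKM in resistant 17, 18 and 28, and of 12.8, 12.4 and 25.5 FPKM in control 17, 18 and 28. The resistant libraries lay close together and all below the lowest control, while control 28 had about the sum of the other two controls. The mean was 3.50 ± 0.182 FPKM in resistant and 16.9 ± 7.47 FPKM in control libraries (SD, n = 3 each), 4.84-fold lower. In bulk RNA, fewer cells with the transcript and less transcript per cell cannot be told apart. On the log2(FPKM + 1) scale, resistant minus control, pools 17, 18 and 28 gave -1.65, -1.61 and -2.49, with a mean of -1.92 ± 0.499 (SD over 3 pools). Without control 28 the mean difference was -1.60. These values chose the gene, so no p is given. Seen against all 11307 genes tested, the mean difference of POLR2A was the 28th lowest, and it ranked 52, 289 and 31 from the lowest in pools 17, 18 and 28. A difference of -1.5 or below in each of the 3 pools was found for 8 genes, 0.0708% of those tested: ANP32B, BIN1, HBE1, HIST1H2BB, HIST1H3C, POLR2A, SNORD115-38 and SNORD116-15, a limit and a list chosen after the values were seen.

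**Figure D1:**
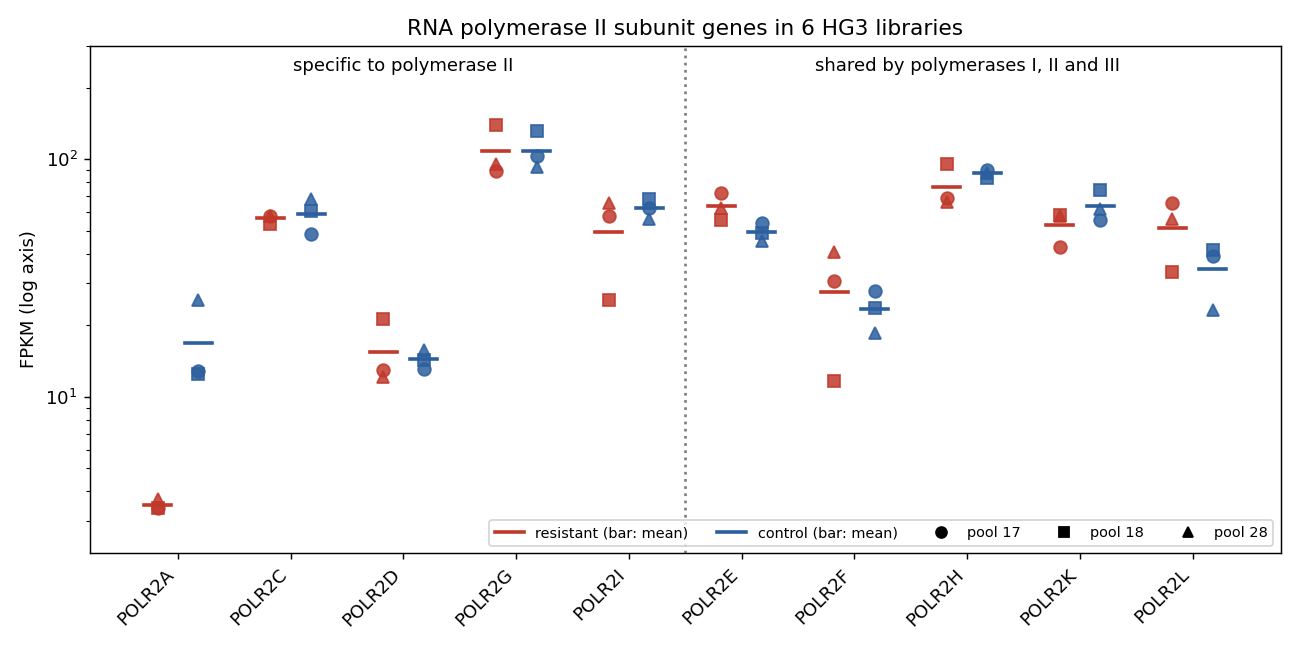
FPKM of the 10 subunit genes (log axis) in the 3 resistant (red, left) and 3 control (blue, right) libraries; bars are group means and marker shapes give the pool. The 3 resistant libraries had 3.39 to 3.71 FPKM of POLR2A, all below the controls at 12.4 to 25.5 FPKM, and the groups of every partner but POLR2E overlapped.

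None of the 9 partners passed the threshold of 0.05 in limma with Benjamini-Hochberg adjustment over all genes (0 of 9, against 0.0354% of all genes tested, 0.0177% higher and 0.0177% lower in resistant libraries), and 0 of 9 had an unadjusted p under 0.05, against 13.1% of all genes tested. Their median log2 difference was -0.02, against 0.01 for all genes tested. By pool it was -0.02, -0.17 and 0.04 in pools 17, 18 and 28, against -0.03, 0.05 and -0.01 for all genes. POLR2K was lower and POLR2E higher in all 3 pools, 1 of 9 in each direction, against 18.7% lower and 18.9% higher among all genes. The groups did not overlap for 1 of 9 partners, POLR2E, higher in resistant libraries, against 10.1% of all genes in that direction, 11.1% in the other and 21.3% in either.

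The platform on which the large subunits assemble includes POLR2C, which pairs with POLR2J, and the small zinc-binding proteins POLR2K and POLR2L. POLR2C had a level of 57.7, 53.5 and 58.0 FPKM in resistant 17, 18 and 28, and of 48.3, 60.5 and 68.2 FPKM in the controls of the same pools. The 3 resistant values lay inside the control range, and the log2 difference was -0.05 (SE 0.18, limma adjusted p = 0.935). POLR2K had 42.7, 58.2 and 57.9 FPKM in resistant and 55.4, 74.0 and 61.5 FPKM in control libraries. Each resistant library was below the control of its pool, but the groups overlapped, and the log2 difference was -0.27 (SE 0.20, limma adjusted p = 0.604). POLR2L had 65.3, 33.6 and 55.9 FPKM in resistant and 39.1, 41.5 and 23.1 FPKM in control libraries. It was higher in pools 17 and 28 (0.73 and 1.24 on the log2 scale) and lower in pool 18 (-0.30), and the mean difference of 0.56 (SE 0.32) was not past the threshold (limma adjusted p = 0.495). The difference was 0.83 without resistant 18 and 0.98 without pool 18, not past the threshold either (limma adjusted p = 0.153 and 0.225), and the lowest adjusted p of any alternative was 0.103, under array weights.

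The stalk is made of POLR2D and POLR2G, which bind emerging RNA. POLR2D, with the lowest partner level in 5 of the 6 libraries, had 12.9, 21.4 and 12.1 FPKM in resistant and 13.1, 14.3 and 15.7 FPKM in control libraries. Resistant 18 was the highest of the 6 and the other libraries lay close together (log2 difference 0.06, SE 0.23, limma adjusted p = 0.942). The positive sign rested on that library, since without resistant 18 the difference was -0.18 (limma adjusted p = 0.424). POLR2G, the most abundant of the 10 in each library on the FPKM scale, had 89.3, 139 and 95.3 FPKM in resistant and 103, 131 and 92.4 FPKM in control libraries. In both groups pool 18 had the highest value, and the groups overlapped (log2 difference -0.02, SE 0.24, limma adjusted p = 0.979). Without resistant 18 it was -0.22 (limma adjusted p = 0.479). The levels of this pair lay far apart in both groups. POLR2G averaged 108 ± 27.3 FPKM in resistant and 109 ± 19.9 FPKM in control libraries, and POLR2D averaged 15.5 ± 5.11 FPKM in resistant and 14.4 ± 1.31 FPKM in control libraries (SD, n = 3 each).

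POLR2I, whose yeast counterpart helps the enzyme remove misplaced nucleotides, had 57.6, 25.5 and 65.3 FPKM in resistant and 62.4, 67.8 and 56.1 FPKM in control libraries. Resistant 18 was the lowest of the 6, and the other 5 lay between 56.1 and 67.8 FPKM. Pools 17, 18 and 28 gave log2 differences of -0.11, -1.37 and 0.22, with a mean of -0.42 (SE 0.34, limma adjusted p = 0.633). Without resistant 18 the mean difference was -0.01, and without pool 18 it was 0.05.

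POLR2E, POLR2F, POLR2H, POLR2K and POLR2L serve all 3 nuclear RNA polymerases. POLR2E had 72.4, 55.7 and 62.1 FPKM in resistant and 54.1, 48.8 and 45.4 FPKM in control libraries, so that every resistant library was above every control. The means were 63.4 ± 8.41 FPKM in resistant and 49.4 ± 4.42 FPKM in control libraries (SD, n = 3 each), 1.28-fold higher. The log2 difference of 0.35 (SE 0.17) was not past the threshold (limma adjusted p = 0.436), and its adjusted p lay between 0.0958 and 0.923 over the alternatives. POLR2H had 68.9, 95.1 and 66.3 FPKM in resistant and 90.3, 83.6 and 87.9 FPKM in control libraries. It was below control in pools 17 and 28 and above it in pool 18 (log2 difference -0.20, SE 0.19, limma adjusted p = 0.694). Without resistant 18 the difference was -0.36 (limma adjusted p = 0.168).

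POLR2F, needed for assembly of the enzyme in yeast, had 30.9, 11.7 and 40.6 FPKM in resistant and 27.9, 23.8 and 18.6 FPKM in control libraries. Resistant 18 was the lowest and resistant 28 the highest of the 6, so the pools pointed in opposite directions. Pools 17, 18 and 28 gave log2 differences of 0.14, -0.96 and 1.09, with a mean of 0.09 (SE 0.43, limma adjusted p = 0.954). Without resistant 18 the mean difference was 0.60 and was not past the threshold either (limma adjusted p = 0.173).

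**Figure D2:**
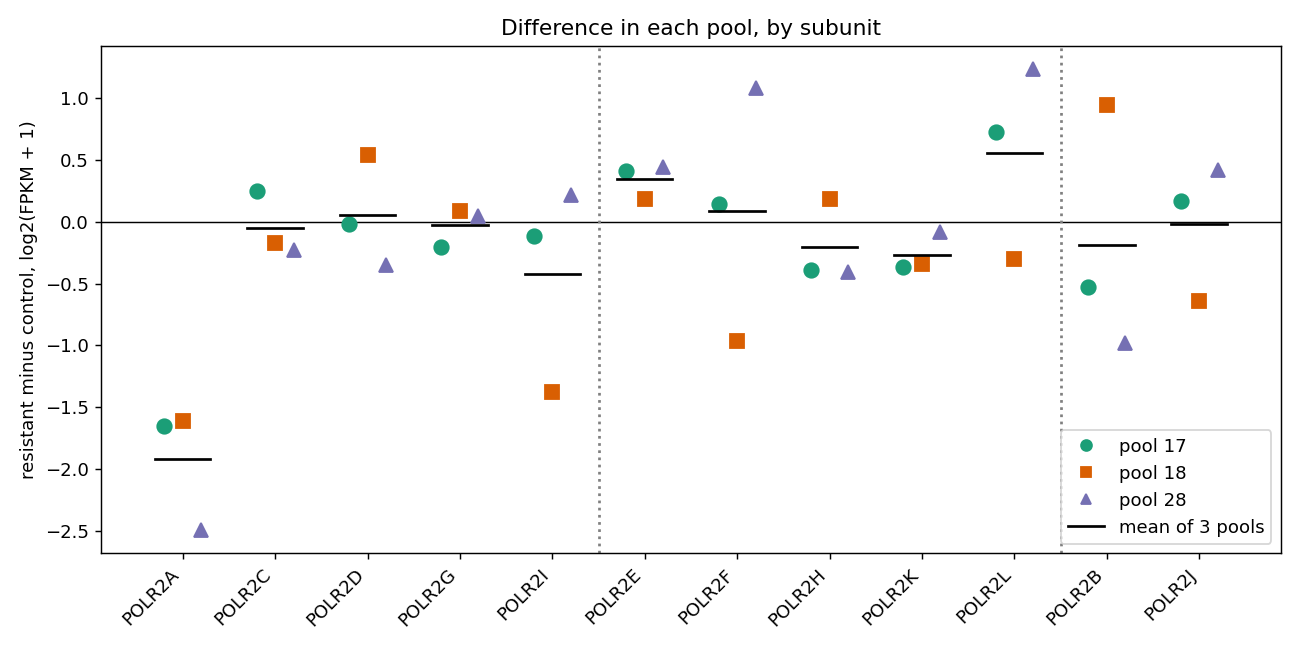
Log2(FPKM + 1) of the resistant minus the control library in pools 17 (circles), 18 (squares) and 28 (triangles) for 12 subunit genes, with the mean of the 3 pools as a bar; dotted lines part subunits specific to polymerase II, shared ones, and POLR2B and POLR2J. POLR2A lay at -1.65, -1.61 and -2.49, and POLR2E was higher and POLR2K lower in all 3 pools. Every other gene had pools on both sides of 0, with POLR2F and POLR2B the most spread.

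Both remaining subunits of the enzyme, POLR2B and POLR2J, are not among the 10. POLR2B, the second-largest subunit and the other side of the active site, had 36.6, 87.5 and 24.8 FPKM in resistant and 53.2, 44.9 and 49.9 FPKM in control libraries. It was lower in pools 17 and 28 and higher in pool 18, where its log2 difference was 0.95, against -0.53 and -0.98 (mean -0.19, SE 0.42, limma adjusted p = 0.885). The mean was -0.69 without resistant 18 (limma adjusted p = 0.127) and 0.20 without resistant 28 (limma adjusted p = 0.842). POLR2J, which pairs with POLR2C, had 24.6, 13.1 and 26.1 FPKM in resistant and 21.8, 20.9 and 19.2 FPKM in control libraries (log2 difference -0.02, SE 0.27, limma adjusted p = 0.987). Without resistant 18 its difference was 0.28 (limma adjusted p = 0.233). Reads of POLR2J can be shared with its near-identical copies POLR2J2 and POLR2J3, so its level is uncertain. POLR2J3 had 1.73, 2.68 and 1.18 FPKM in resistant and 2.62, 2.15 and 2.38 FPKM in control libraries. Its log2 differences were -0.40, 0.22 and -0.63 in pools 17, 18 and 28 (mean -0.27, SE 0.22, limma adjusted p = 0.636). POLR2M, a protein that binds the enzyme and can hold back initiation, had 10.4, 18.0 and 11.2 FPKM in resistant and 13.1, 13.8 and 12.5 FPKM in control libraries (log2 difference -0.03, SE 0.22, limma adjusted p = 0.971), and without resistant 18 it had a difference of -0.26 (limma adjusted p = 0.25). Its gene overlaps a read-through gene, so its reads are likewise uncertain.

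Resistant 18 was the highest of the 6 libraries for POLR2D, POLR2G and POLR2H and the lowest for POLR2F and POLR2I, 3 and 2 of the 9 partners, against 35.4% and 25.3% of all genes tested. Outside the 9 it was also the highest for POLR2B, POLR2J3 and POLR2M and the lowest for POLR2A and POLR2J, although for POLR2A resistant 17 and 18 both rounded to 3.39 FPKM. Both counts lie near the shares of all genes. Without resistant 18 the log2 difference was -0.01 for POLR2C, 0.44 for POLR2E and -0.34 for POLR2K, and that of POLR2A was -1.90.

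Within each library, POLR2A was set against its partners, which no scaling of a whole library moves. POLR2A stood at 5.88%, 6.34% and 6.40% of the partners' median FPKM in resistant 17, 18 and 28, and at 23.6%, 20.5% and 45.5% in control 17, 18 and 28. The resistant libraries lay together and below all controls. This ratio, and that to POLR2B below, holds the POLR2A values that chose the gene, so both are descriptions and no separate support. The partners' median itself was 53.5 to 58.0 FPKM in resistant and 54.1 to 60.5 FPKM in control libraries. Against POLR2B, POLR2A stood at 9.29%, 3.88% and 15.0% in resistant and 24.1%, 27.7% and 51.1% in control libraries. POLR2A was the lowest of the 10 in all 3 resistant libraries and in control 17 and 18, and 7th in control 28. In order of mean level in resistant libraries the genes were POLR2G, POLR2H, POLR2E, POLR2C, POLR2K, POLR2L, POLR2I, POLR2F, POLR2D and POLR2A, and in control libraries POLR2G, POLR2H, POLR2K, POLR2I, POLR2C, POLR2E, POLR2L, POLR2F, POLR2A and POLR2D. Genes next to each other in the resistant order overlapped in range, except POLR2D and POLR2A. In the control order POLR2G and POLR2H, POLR2H and POLR2K, and POLR2E and POLR2L did not overlap, and the other adjacent pairs did.

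The transcript of POLR2A is the longest of the 10, at 6751 bases in GENCODE v29, against 827 to 5042 bases for the partners, and 56.1% of it is G or C. The 200 tested genes nearest in length and GC content had median log2 differences of -0.17, -0.12 and -0.12 in pools 17, 18 and 28. POLR2A had -1.65, -1.61 and -2.49 there. With trends over length and GC content taken from each library, its differences were -1.46, -1.46 and -2.30. For the short, GC-rich POLR2I and POLR2L, the nearest genes had medians of -0.37 and -0.39 in pool 18, in the direction of both genes there. With the trends removed the pool 18 difference of POLR2I was -0.99 and that of POLR2L 0.10. POLR2G and POLR2K, also short, went against their nearest genes in pool 18. Those genes had medians of -0.25 and 0.32, against 0.09 for POLR2G and -0.34 for POLR2K. Their own differences there were 0.30 and -0.57 with the trends removed.

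Among the 10 tested genes on each side on chromosome 17, from NEURL4 to FXR2 in RefSeq order, the median log2 difference was 0.05, 0.17 and 0.14 in pools 17, 18 and 28. Of these 20 neighbours, 0 had a mean difference as low as that of POLR2A. POLR2A was chosen for its fall and was the 28th lowest of the 11307 genes tested. That count was therefore all but fixed in advance and is no separate support. Lower in all 3 pools was 1 of 20, the small nucleolar RNA SNORA48, against 18.7% of all genes. On one side ZBTB4 had differences of 0.04, -0.01 and -0.11 in pools 17, 18 and 28, and on the other TNFSF12 had 0.49, -1.22 and 0.82. TNFSF13, which encodes the B cell survival factor APRIL, had the lowest mean of the neighbours, -0.57. The next gene, SENP3, a SUMO protease, had a mean difference of 0.50, and EIF4A1, a translation helicase, one of -0.08. These neighbours fall outside the rule for named genes and were chosen after their values were seen. For the partners, the median of the neighbours lay between -0.25 (POLR2K) and 0.08 (POLR2H).

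**Figure D3:**
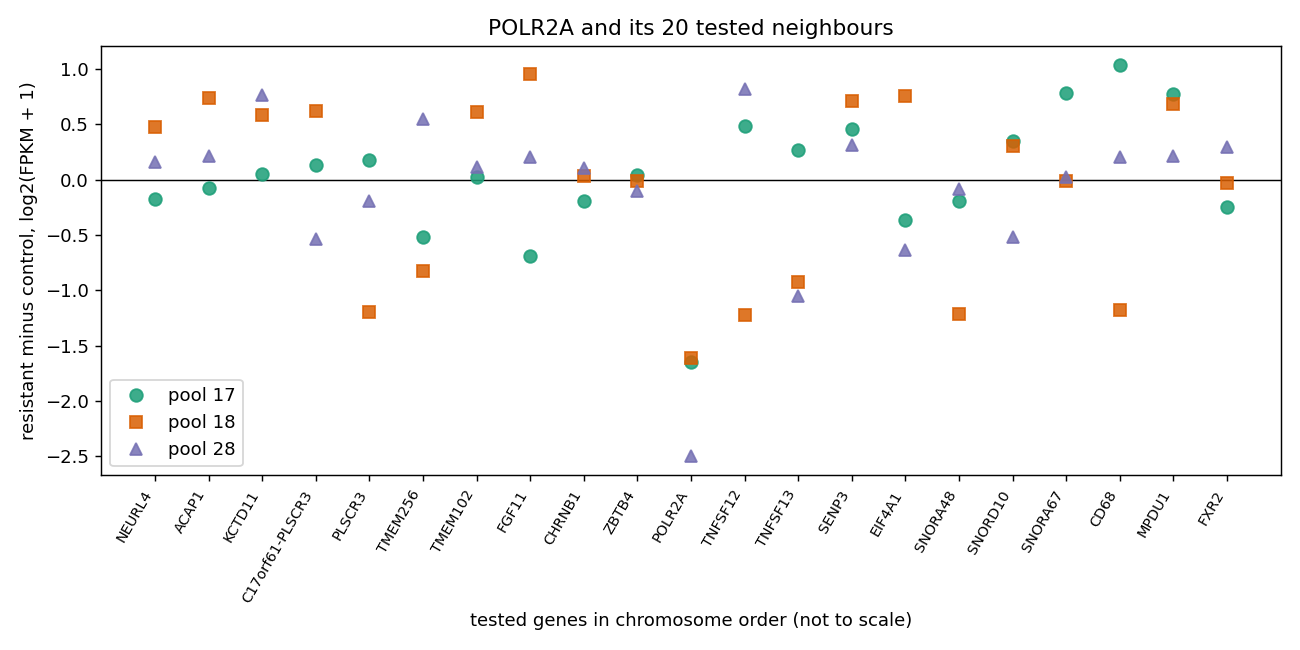
Log2(FPKM + 1) of the resistant minus the control library in pools 17, 18 and 28 for POLR2A and the 10 tested genes on each side of it, in chromosome order and not to scale. POLR2A lay at -1.65, -1.61 and -2.49, and the medians of the 20 neighbours at 0.05, 0.17 and 0.14.

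Profiles over the 6 libraries were compared with that of POLR2A by the root mean square distance of log2(FPKM + 1) after each gene's mean was taken away. The nearest of 11306 genes were SON, ZMIZ1, CCNK, USP14 and ALDH2, at 0.22, 0.24, 0.25, 0.30 and 0.31. SON, which encodes a protein of nuclear speckles, had a level of 13.2, 12.8 and 12 FPKM in resistant and of 36.1, 47.3 and 58.4 FPKM in control libraries. ZMIZ1, a transcriptional coactivator gene, had 1.36, 0.817 and 1.58 FPKM in resistant and 4.40, 5.30 and 8.28 FPKM in control libraries. In both, as in POLR2A, control 28 was the highest library and the resistant libraries lay together. USP14 and ALDH2, for a deubiquitinase and an aldehyde dehydrogenase, differed by -1.56 and -1.46 on the log2 scale. USP14 had 7.60, 6.94 and 6.56 FPKM in resistant and 18.7, 23.4 and 26.8 FPKM in control libraries. ALDH2 had only 0.327, 0.070 and 0.175 FPKM in resistant and 2.08, 1.85 and 2.96 FPKM in control libraries. It passed the filter on low values through its controls alone, so its difference is not independent of that filter. The nearest members were POLR2K and POLR2I, at 0.91 and 0.93, ranks 2307 and 2637. POLR2L, at 1.39, was the farthest member, rank 10718. All of these profiles share the same 6 libraries, and the measure picks genes that are low in the resistant libraries as POLR2A is, so no p is given.

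**Figure D4:**
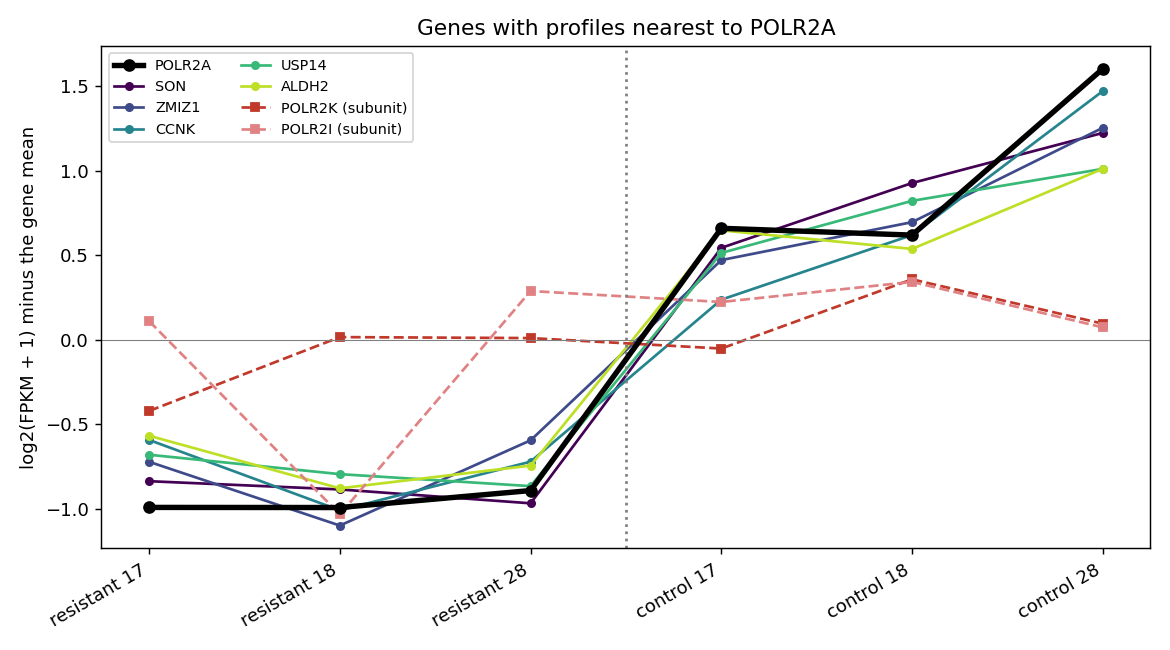
Log2(FPKM + 1) minus the gene's own mean in the 3 resistant and 3 control libraries for POLR2A (black), its 5 nearest genes (solid lines) and its 2 nearest members (dashed), with lines joining values of the same gene. SON, ZMIZ1, CCNK, USP14 and ALDH2 lay at distances of 0.22 to 0.31 from POLR2A, and POLR2K and POLR2I at 0.91 and 0.93.

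RNA polymerases I and III, which make ribosomal RNA and small RNAs, have their own counterparts of POLR2A and POLR2B. The largest subunits of those enzymes are POLR1A and POLR3A. POLR1A had 7.73, 11.85 and 7.97 FPKM in resistant and 9.12, 8.42 and 10.7 FPKM in control libraries (log2 difference -0.05, limma adjusted p = 0.945). POLR3A had 4.95, 4.53 and 5.03 FPKM in resistant and 5.65, 5.36 and 7.97 FPKM in control libraries. Its groups did not overlap, with lower values in resistant libraries, and control 28 was its highest library too, but the log2 difference of -0.31 (SE 0.18) was not past the threshold (limma adjusted p = 0.499). The second-largest subunits POLR1B and POLR3B differed by -0.31 and -0.06 (limma adjusted p = 0.583 and 0.918). POLR1A and POLR3B fall outside the rule for named genes and were chosen after their values were seen. Among 7 tested subunits of polymerase I, 0 passed and the median was -0.05, with ZNRD1, a small zinc-binding subunit, at 79.8 ± 6.93 FPKM in resistant and 97.7 ± 7.70 FPKM in control libraries (SD, n = 3 each, limma adjusted p = 0.492). Among 11 of polymerase III, 0 passed and the median was 0.02, with POLR3C at 20.4 ± 1.94 FPKM in resistant and 16.3 ± 2.33 FPKM in control libraries (SD, n = 3 each, limma adjusted p = 0.472).

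Across 9 lists of the transcription machinery outside the 10 genes, 152 genes were tested. Of these 0 passed in limma, 16 (10.5%) had an unadjusted p under 0.05, against 13.1% of all genes, and the median log2 difference was 0.02. The groups did not overlap for 19 genes lower (12.5%) and 13 higher (8.55%) in resistant libraries, against 11.1% and 10.1% of all genes.

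The enzymes that write and erase phosphate on the tail of POLR2A, with proteins that bind it, had 0 of 16 genes past the threshold and a median of -0.14. They had 12 negative and 4 positive differences, against 48.4% negative and 51.6% positive among all genes tested. The median of this list was 0.0024, -0.08 and -0.25 in pools 17, 18 and 28, so the lean was not shared by pool 17. CCNK, the cyclin that activates the tail kinases CDK12 and CDK13, had a level of 2.0, 1.25 and 1.75 FPKM in resistant and of 4.33, 5.95 and 11.5 FPKM in control libraries. All resistant libraries were below all controls, with log2 differences of -0.83, -1.63 and -2.19 in pools 17, 18 and 28 (mean -1.55, SE 0.32, limma adjusted p = 0.179). Its kinase partners CDK12 and CDK13, chosen after their values were seen, differed by -0.12 and -0.07 (limma adjusted p = 0.781 and 0.888). SCAF4, which binds the tail and prevents early termination, had 0.662 ± 0.110 FPKM in resistant and 1.83 ± 0.346 FPKM in control libraries (SD, n = 3 each), a log2 difference of -0.76 (limma adjusted p = 0.182). With array weights CCNK and SETD2, a methyltransferase that binds the tail, passed (limma adjusted p = 0.0432 and 0.0497). Under that setting 301 of the 11307 genes tested passed. SETD2 falls outside the rule for named genes and was chosen after its values were seen. Without the weights it differed by -0.64 (limma adjusted p = 0.200). CCNK and SCAF4 are low genes, and the pseudocount of 1 shrinks their differences. SCAF4 was below 1 FPKM in every resistant library, so it passed the filter on low values through its controls alone. Its difference and p are not independent of that filter.

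Pausing and elongation factors, which hold the enzyme after the start or help it onward, had 0 of 25 genes past the threshold and a median of 0.12. PAF1, a subunit of an elongation complex, had 22.7, 16.5 and 20.8 FPKM in resistant and 14.9, 6.15 and 4.31 FPKM in control libraries. Every resistant library was above every control, and the log2 difference of 1.30 (SE 0.39) was not past the threshold (limma adjusted p = 0.249). AFF1, a scaffold of the super elongation complex, had 4.5 ± 0.405 FPKM in resistant and 7.54 ± 0.320 FPKM in control libraries (SD, n = 3 each, log2 difference -0.64, limma adjusted p = 0.185). It passed with array weights (limma adjusted p = 0.0352), when 301 of the 11307 genes tested passed. General transcription factors, which place the enzyme at promoters, had 0 of 32 past the threshold and a median of 0.06. Their TFIID subunits TAF6 and TAF7 differed by -0.42 and 0.59 (limma adjusted p = 0.30 and 0.307).

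Mediator, which links activators to the enzyme, had 0 of 31 genes past the threshold and a median of -0.02. CDK8, the kinase of its detachable module, had 17.0, 17.6 and 15.8 FPKM in resistant and 24.5, 23.9 and 24.7 FPKM in control libraries, with groups that did not overlap (log2 difference -0.52, SE 0.14, limma adjusted p = 0.220). MED31, of its middle module, differed by 0.66 (limma adjusted p = 0.306). Factors that assemble the enzyme in the cytoplasm and bring it to the nucleus had 0 of 16 past the threshold, with 13 positive and 3 negative differences, against 51.6% positive among all genes, and a median of 0.19. Their median was 0.10, 0.44 and 0.175 in pools 17, 18 and 28, highest in the pool of the library that stood apart. The chaperone cofactor genes ZNHIT2 and WDR92 differed by 0.35 and 0.43 (limma adjusted p = 0.429 and 0.431). Genes tied to the degradation of POLR2A had 0 of 13 past the threshold and a median of 0.05. WWP2, a ubiquitin ligase reported to act on the mouse protein, had 11.6 ± 0.342 FPKM in resistant and 15.0 ± 0.785 FPKM in control libraries (SD, n = 3 each, limma adjusted p = 0.365), and TCEB1, for elongin C, differed by -0.31 (limma adjusted p = 0.492).

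**Figure D5:**
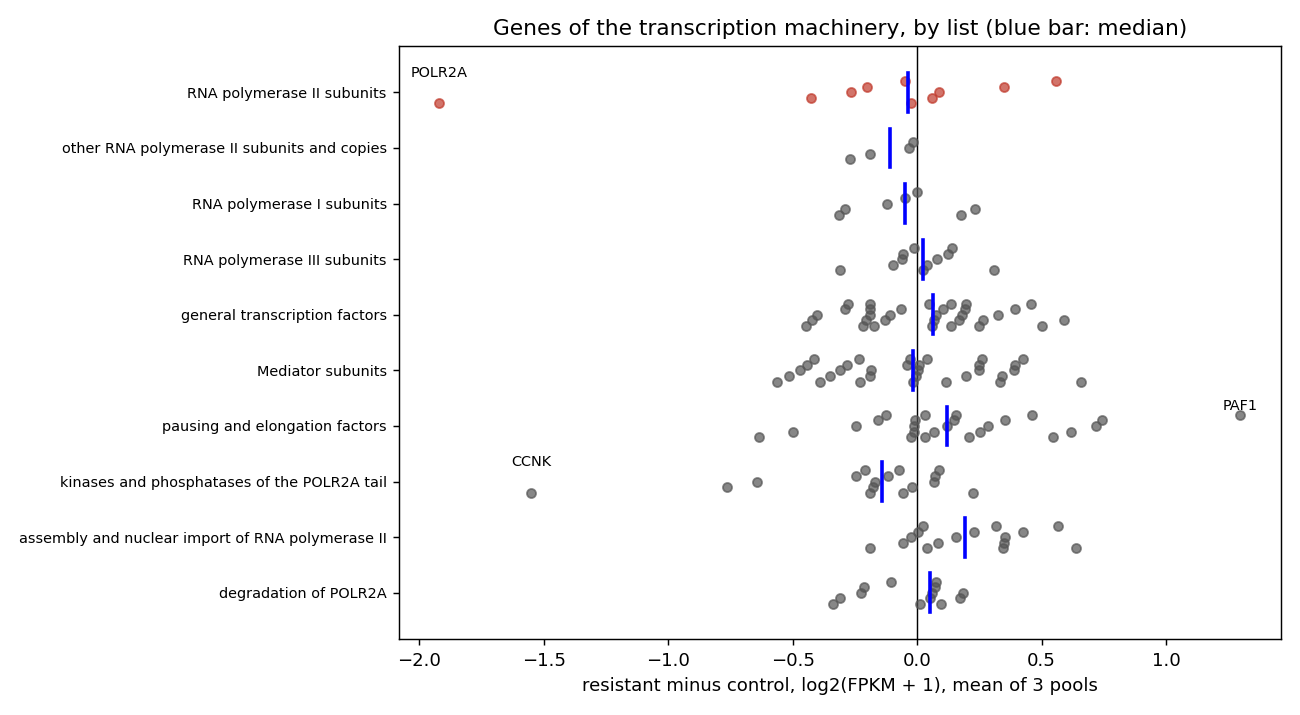
Mean log2(FPKM + 1) difference over 3 pools, resistant minus control, for each tested gene of 10 lists, the 10 subunit genes in red and the rest in grey, with a blue bar at each list's median. POLR2A at -1.92, CCNK at -1.55 and PAF1 at 1.30 lay far from the medians of their lists, which ran from -0.14 to 0.19.

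Genes of early stress and RNA handling had 0 of 7 past the threshold and a median of -0.30. They had 5 negative and 2 positive differences, against 48.4% negative among all genes tested. Their median was -0.27, -0.69 and 0.08 in pools 17, 18 and 28, lowest in the pool of the library that stood apart and above 0 in pool 28. The summed level of all 10 genes of the list, with those not tested, was 63.3 to 112 FPKM in resistant and 106.5 to 152 FPKM in control libraries. HSPA1B, a heat shock gene named after its values were seen, had 28.9 FPKM in control 17, against 2.96 and 3.12 FPKM in control 18 and 28. It differed by -2.15, 0.17 and 0.09 in pools 17, 18 and 28, so its negative mean rested on control 17. MALAT1, a nuclear non-coding RNA made by polymerase II, had 18.8, 11 and 25.7 FPKM in resistant and 26.1, 36.1 and 41.1 FPKM in control libraries, with control 28 again the highest and resistant 18 the lowest (log2 difference -0.91, SE 0.32, limma adjusted p = 0.30). DNAJB1, a heat shock cofactor, differed by -0.38 (limma adjusted p = 0.604). The 2 positive differences, named after their values were seen, were those of NEAT1, another nuclear non-coding RNA made by polymerase II, at 0.22 (limma adjusted p = 0.883), and JUN, an early response gene, at 0.14 (limma adjusted p = 0.926). The part of these values in the level of POLR2A was not tested.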

How the data were processed

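The authors deposited FPKM, 1 value for each of 23619 gene symbols in each of 6 libraries, per the file headers. The submitters' processing notes name hg19 and the tools DESeq2, HTSeq 0.6.1, Cufflinks 2.2.1 and TopHat2 2.0.4, without their roles. Annotation and strand setting: not given in the sources used here. No counts were used and no count model was fitted.

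Genes at 1 FPKM or more in at least 3 libraries were tested (11307). limma 3.58.1 in R 4.3.3 was run on log2(FPKM + 1), two-sided, with a mean-variance trend and Benjamini-Hochberg adjustment at 0.05, and was tested on simulated data. Nothing says how the pools were cultured, so p-values cover only the spread among these libraries, which may be technical. Relative depth was read from steps between values under 0.3 FPKM. Leaving out libraries kept the same 11307 genes. Alternatives were 2 other pseudocounts (0.1 and 5), no filter, the pool block, quantile normalization, median centring, array weights, and loess removal of length and GC trends (span 0.5). The design text speaks of pairs, so the pool number was the block; deviations of same-numbered libraries from group means correlated at 0.148, 0.0892 and -0.0243 in pools 17, 18 and 28. Length and GC content came from the longest protein-coding or processed transcript of GENCODE v29, matched by symbol for 91.9% of tested genes, and gene order from RefSeq GRCh38.p14.

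Members and lists were chosen with earlier results of these data known. The text names all members, POLR2B, POLR2J and POLR2M, the 2 genes of smallest p in each list of the machinery (every gene past the threshold, where there was one), and the 5 genes and 2 members nearest to POLR2A.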

Additional observations from a re-analysis of the deposited data

Results flagged for a closer look

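POLR2F and POLR2B drew attention because pools differed by over 0.5 on the log2 scale in opposite directions, with 1 library per pool and group, so the difference between pools was not tested. POLR2F, resistant minus control, was highest at 1.09 in pool 28 and lowest at -0.96 in pool 18. POLR2B was highest at 0.95 in pool 18 and lowest at -0.98 in pool 28.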

How the results depend on the processing

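Among the 9 partners, 0 passed in limma under each of 18 alternatives, and their median log2 difference of -0.02 lay between -0.07 and 0.06 when a library or pool was left out, and was -0.10 after quantile normalization and -0.11 with array weights. The sign of the mean difference turned in at least 1 alternative for POLR2C, POLR2D, POLR2F, POLR2G and POLR2I (5 of 9), and in none of the 18 for POLR2E, POLR2H, POLR2K and POLR2L (4 of 9); it also turned in some for POLR2B, POLR2J and POLR2M. The difference of POLR2A was negative under all 18 alternatives. With a library or pool left out it ran from -2.09 to -1.60, and from -2.15 to -1.535 relative to the partners. POLR2A was chosen for its fall and its groups did not overlap, so leaving out a library or pool could not turn its sign. With a pseudocount of 5, which shrinks low genes by construction, its difference was -1.32, and -1.29 relative to the partners. The median of its matched genes was then -0.076. With array weights 301 of the 11307 genes tested passed the threshold, 125 higher and 176 lower in resistant libraries. Among them were 3 of the 152 machinery genes (AFF1, CCNK and SETD2, all lower). With length and GC trends removed 2 genes passed, and 0 with the replicate block as well (1579 with an unadjusted p under 0.05). When a library or pool was left out 3 to 18 passed, with 8 without resistant 17, 13 without resistant 18 and 18 without pool 18. The array weights were estimated from these data and came out lowest for resistant 18, which then counted for less. Fewer genes have a length with trends removed, and beyond that the cause was not tested. With the replicate block alone 3 genes passed in place of 4, and the block changed no call of a partner or list. The median of the genes matched to POLR2A in length and GC content was -0.14, and was -0.093 with array weights, 0.026 with the trends removed, with or without the replicate block, and -0.16 to -0.097 with a library or pool left out. The median of the 20 neighbours was 0.04, and was 0.17 after quantile normalization and 0.0060 to 0.16 with a library or pool left out. No fragment counts were used here, so the precision of low genes such as POLR2A in resistant libraries was judged from 3 libraries.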
